A study of Mus musculus with 2 samples.

Results

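Nonclassical monocytes were examined in the stromal vascular fraction (SVF) of gonadal white adipose tissue (gWAT), where single cells had been sequenced from littermate control and Adipo-Pgam1 KO mice. The cells were chosen by their own transcripts. A selected cell held 2 or more UMIs of Treml4, Adgre4, Cd300e and Fcgr4 together and at least 1 UMI of the first 3 of these genes. It also held at most 5 UMIs of C1qa, C1qb and C1qc, none of Folr2, Cbr2 or Cd79a, and fewer than 10 of Dcn, which keeps out resident macrophages, B cells and fibroblasts. A UMI (unique molecular identifier) marks 1 captured transcript molecule. Cells were kept when 500 or more genes were detected and mitochondrial UMIs did not exceed 10%. Of 4839 kept cells, 171 were selected, of which 140 came from the littermate control library and 31 from the Adipo-Pgam1 KO library. The levels of the 4 genes are therefore given below as a description of the selection and not as a finding.

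Both libraries came from male C57BL/6 mice of 13 weeks. The labels describe the control as a littermate wildtype and the other library as a Pgam1 knockout, and the study's methods give floxed Pgam1 alleles in both, with Cre under the adiponectin promoter in the KO only. That promoter drives Cre in adipocytes, which float away when the SVF is prepared, so the selected cells are not the cells in which the deletion was designed to occur. There was 1 library per genotype, the number of mice behind each is not given in the sources used here, and no p-value could be computed. Intervals are 95% intervals that cover counting error only. No perfusion step is described for the tissue, so cells within vessels and cells in the tissue cannot be told apart. The KO library was smaller, with 958 kept cells against 3881, and its selected cells were deeper, with a median of 12959 UMIs against 7691.5 in the control. The libraries shared 9 cell barcodes, of which 1 was that of a selected cell.

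Nonclassical monocytes are blood monocytes that crawl along the inside of vessels and survey the endothelium. In the mouse they are low in Ly6C and arise largely from Ly6C-high classical monocytes, a conversion that depends on the nuclear receptor Nr4a1. They carry the fractalkine receptor Cx3cr1, the sialoglycoprotein CD43 (Spn), the integrin subunit CD11a (Itgal) and the activating IgG receptor Fcgr4, and they have little of the classical chemokine receptor Ccr2 and of MHC class II, the antigen-presenting complex of dendritic cells and B cells.

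The label of nonclassical monocytes held for one portion of the selected cells and not for another. The number of UMIs of the class II genes H2-Aa, H2-Ab1 and H2-Eb1 per 10000 UMIs of a cell spanned a wide range, with few cells in between. At a limit of 50, which was chosen after the values were seen, 88 control and 16 KO cells were class II-low and 52 control and 15 KO cells were class II-high. Class II-low cells reached 46.2 among control and 34.1 among KO cells, and class II-high cells began at 58.3 and 64.6. Class II-low and class II-high medians were 1.73 and 220.7 for control cells, and 0.722 and 253.8 for KO cells. Only 13 control and 2 KO cells lay between 20 and 100.

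The class II-low cells carried the nonclassical monocyte genes that the selection did not use. Of 19 such markers, a class II-low cell held a UMI of a median of 16 (control) or 15.5 (KO), whereas a class II-high cell held a median of 6 in either library. At least 10 of the 19 were found in 84 of the 88 control and 13 of the 16 KO class II-low cells, but in 14 of 52 and 2 of 15 class II-high cells. The class II-high cells were the deeper ones, with a median of 12216.5 UMIs against 5513 in the control and 15147 against 9051 in the KO, so their smaller number of markers went with more UMIs and not with fewer.

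**Figure D1:**
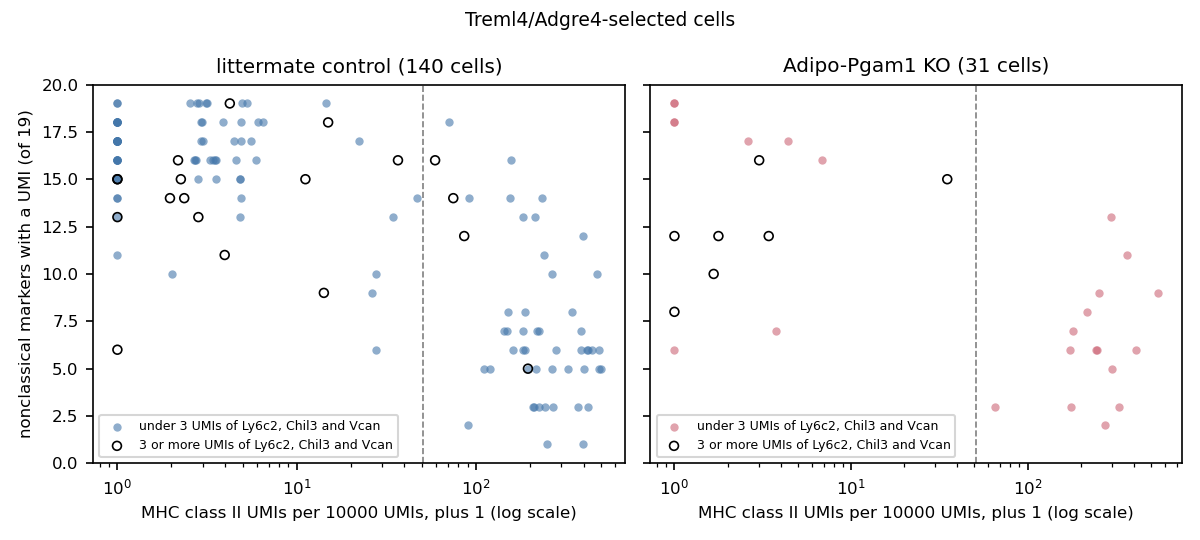
Each point is 1 selected cell, with MHC class II UMIs per 10000 UMIs plus 1 on the horizontal axis (log scale) and the number of nonclassical markers outside the selection with a UMI, of 19, on the vertical axis. The dashed line is the limit of 50, and open circles hold 3 or more UMIs of Ly6c2, Chil3 and Vcan. Cells left of the line mostly hold 10 or more markers and cells right of it mostly hold fewer, in both libraries.

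The selecting genes themselves followed the same division. Treml4, a receptor of the TREM family (chromosome 17, 48264295 to 48275360, plus strand, GRCm38), had a UMI in 79 of 88 control class II-low cells and in 13 of 16 of those from the KO, with a median of 3 and 3.5 UMIs per cell. Among class II-high cells it was found in 20 of 52 and 5 of 15. Adgre4, an adhesion G protein-coupled receptor (chromosome 17, 55749984 to 55853662, plus strand), was found in 85 of 88 and 15 of 16 class II-low cells and in 41 of 52 and 9 of 15 class II-high cells. Cd300e, an activating CD300 receptor (chromosome 11, 115051917 to 115062177, minus strand), was found in 43 of 88 and 6 of 16 class II-low cells, but in only 2 of 52 and 1 of 15 class II-high cells. Fcgr4 (chromosome 1, 171018920 to 171029761, plus strand) was found in 59 of 88 and 13 of 16 class II-low cells and in 11 of 52 and 1 of 15 class II-high cells. Adgre4 was thus the gene by which most class II-high cells had entered.

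Adgre4 UMIs were also common among class II-rich leukocytes, counted with the selected cells among them. Of 886 control cells with a Ptprc UMI and at least 50 class II UMIs per 10000, 20.5% held an Adgre4 UMI (95% CI 17.9 to 23.4), at a median of 10570 UMIs per cell. In 1010 fibroblast-like control cells, with at least 10 Dcn UMIs and no Ptprc UMI, the share was 0.297% (95% CI 0.0613 to 0.866) at a similar median of 11432 UMIs. In 453 control cells with at least 2 Cd3 UMIs it was 1.32% (95% CI 0.488 to 2.86) at a median of 4702 UMIs. The 886 cells included 51 selected class II-high cells, which entered in part by Adgre4. Of the 886, 182 held an Adgre4 UMI, and 41 of all 52 selected class II-high control cells did. With the selected cells included, the share in class II-rich leukocytes was far above that in cells that should lack the gene.

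Most cells at the threshold of 2 UMIs were class II-high. Of the 36 control and 9 KO cells with exactly 2 UMIs of the 4 genes, 32 and 7 were class II-high (61.5% and 46.7% of all class II-high cells). The cells at the threshold had a median of 6 of the 19 markers and of 213.8 and 295.1 class II UMIs per 10000. Just outside the threshold, 70 control and 20 KO cells held 1 UMI and met the other limits, with a median of 6 and 5.5 markers and of 199.5 and 247.4 class II UMIs per 10000. Cells on either side of the threshold thus resembled each other, and differed from the class II-low cells. The requirement for 1 UMI of Treml4, Adgre4 and Cd300e had 6 control and 1 KO cells just inside it and 4 and 3 just outside. The limit on C1q genes alone turned away 16 control and 4 KO cells, that on Folr2 and Cbr2 9 and 2, and that on Dcn 5 and 0.

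As a share of kept cells, the selected cells made up 3.61% in the control (95% CI 3.04 to 4.24) and 3.24% in the KO (95% CI 2.21 to 4.56). The class II-low cells made up 2.27% (95% CI 1.82 to 2.79) and 1.67% (95% CI 0.958 to 2.7). The class II-high cells made up 1.34% (95% CI 1 to 1.75) and 1.57% (95% CI 0.879 to 2.57). The intervals of the 2 libraries overlapped for each of these shares. Shares of an SVF digest also depend on how the tissue was taken apart and on the filters, so they are not numbers of cells per gram of tissue.

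Levels were next compared within each library with 3 other myeloid populations, each drawn by simple limits on UMIs of its own markers. These were resident macrophages (314 control and 23 KO cells), cells of a classical monocyte rule (19 and 10 cells) and cells of a type 2 dendritic rule (130 and 22 cells). Levels are in CPM, the UMIs of a gene relative to all UMIs summed over the cells of a group. In the control library, 17 of the 19 markers outside the selection were at least 2-fold higher in class II-low cells than in classical monocyte-rule cells, where 15.2% of all genes with at least 50 UMIs were. The same held for 17 of 19 against resident macrophages, beside 10.4% of all genes, and for 19 of 19 against dendritic-rule cells, beside 11.9%. The KO library gave 15 of 19 against classical monocyte-rule cells beside 7.12% of all genes, 15 of 19 against macrophages beside 16.3%, and 19 of 19 against dendritic-rule cells beside 13.5%. The median log2 ratio of the 19 ran from 2.70 to 4.32 in the control and from 2.44 to 3.17 in the KO. Markers that occur together in a cell are bound to rise when cells are chosen by some of them, so these counts describe the selected cells and test nothing.

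Ace, angiotensin-converting enzyme, separated the class II-low cells from other myeloid cells in both libraries. It had 900.6 CPM in the control and 599.3 CPM in the KO class II-low cells, 14.7 and 7 CPM in classical monocyte-rule cells, and 5.37 and 0 CPM in macrophages. It was not particular to monocytes, because the fibroblast-like cells held 468.5 CPM in the control. Cx3cr1 had 748.7 CPM in control class II-low cells, 151.7 in classical monocyte-rule cells and 82.2 in macrophages. Nr4a1, the receptor on which these cells depend, had 1398.5 CPM in control class II-low cells, 445.4 in classical monocyte-rule cells and 64.8 in macrophages. In class II-high control cells the same 3 genes had 87, 70.5 and 320.5 CPM.

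**Figure D2:**
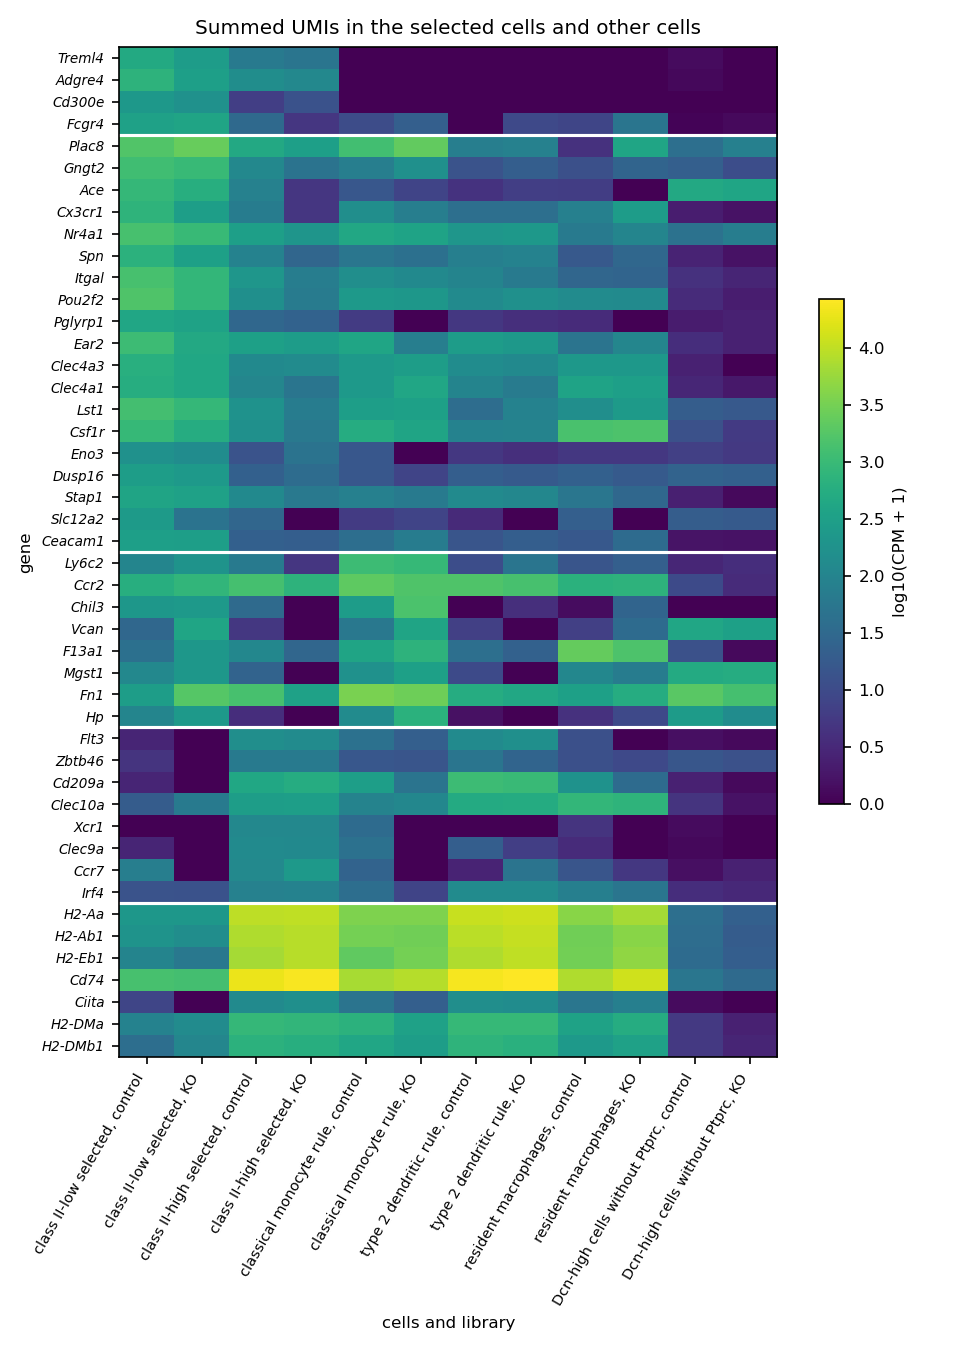
Colour gives log10(CPM + 1) of summed UMIs for each gene (rows: selecting genes, 19 other nonclassical markers, classical monocyte markers, dendritic cell markers and MHC class II genes, separated by white lines) in each group of cells and library (columns). The class II-low columns are bright for the nonclassical markers and dark for dendritic markers, and the class II-high columns are bright for class II genes and carry dendritic markers, as the dendritic-rule columns do.

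Shares of cells with a UMI were compared at an equal depth of 2000 UMIs per cell, which left out 2 of the class II-low control cells. Treml4 was then found in 64% of control class II-low cells (95% CI 52.9 to 74), against 89.8% before thinning, and in 13.5% of class II-high cells (95% CI 5.59 to 25.8). Ace was found in 81.4% of control class II-low cells (95% CI 71.6 to 89) and in 15.4% of class II-high cells (95% CI 6.88 to 28.1), against 89.8% and 25% before thinning. Spn was found in 66.3% (95% CI 55.3 to 76.1) and 21.2% (95% CI 11.1 to 34.7), against 86.4% and 46.2%. The order of the 2 groups was the same at both depths. In KO class II-low cells the shares at 2000 UMIs were 31.2% for Treml4 (95% CI 11 to 58.7), 50% for Ace (95% CI 24.7 to 75.3) and 37.5% for Spn (95% CI 15.2 to 64.6).

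The class II-high cells held dendritic cell genes. At least 5 UMIs of a list of 8 dendritic genes were found in 36 of 52 control and 13 of 15 KO class II-high cells, against 1 of 88 and 1 of 16 class II-low cells. At least 3 UMIs of Cd209a, a lectin of type 2 dendritic cells, were found in 17 control and 5 KO class II-high cells. At least 3 UMIs of Xcr1 and Clec9a, the chemokine receptor and the dead-cell receptor of type 1 dendritic cells, were found in 15 and 5. At least 3 UMIs of Ccr7, the receptor that takes dendritic cells to lymph nodes, were found in 4 and 3. None of the class II-low cells reached 3 UMIs of Cd209a, or of Xcr1 and Clec9a together. At least 40 UMIs of Fn1 (fibronectin, also made by classical monocytes) were found in 7 control and 1 KO class II-high cells. The class II-high cells were thus a mixture, and no cell type name is given to them.

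The genes with the largest ratio of selected cells to all other kept cells were next described. Beside the 4 selecting genes, the 20 largest ratios included Gngt2, a G protein gamma subunit, with 566.1 CPM against 28.2 in the control and 420.7 against 30.3 in the KO. They also included the adhesion molecule Ceacam1, the orphan receptor Gpr141, the inhibitory collagen receptor Lair1, the Ly49 family member Klra2, the checkpoint receptor Havcr2 (TIM-3), and Tlr13, the sensor of bacterial ribosomal RNA. Lair1 had 357 CPM in class II-low and 53.9 CPM in class II-high control cells, and 487.7 and 0 CPM in the KO. Eno3, the enolase isoform best known from muscle, had 173.9 CPM in class II-low control cells against 5.65 CPM in all other control cells. Adrbk2, a kinase that desensitises G protein-coupled receptors, was less divided between the portions, with 671.8 CPM in class II-low and 280.4 CPM in class II-high control cells. Plac8, a small cysteine-rich protein, was shared with classical monocytes, at 1691.4 CPM in control class II-low cells and 1203.9 CPM in classical monocyte-rule cells.

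Lists of transcription factors and of adhesion genes were then compared between the portions in the control library. Of 13 survival genes and transcription factors, 7 were at least 2-fold higher in class II-low than in class II-high cells, beside 13.3% of all genes, and 2 were at least 2-fold lower, beside 6.84%. Of 15 adhesion and migration genes, 8 were higher and 1 was lower by that much. Pou2f2 (OCT2) had 1625.5 CPM in class II-low and 161.6 CPM in class II-high control cells, and Cebpb, which sustains nonclassical monocytes, had 2332.1 and 268 CPM. Klf2, which keeps leukocytes quiescent, had 1180.7 and 447.6 CPM and Spi1 (PU.1) 875 and 390.9 CPM. Irf8, a factor of type 1 dendritic cells, had the opposite order, with 186.7 CPM in class II-low and 658.9 CPM in class II-high cells. Itgal had 1376.6 and 208.6 CPM, and S1pr5, a lipid receptor used to leave the bone marrow, had 153.8 and 2.76 CPM.

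The selected cells of the KO library were then compared with those of the control. Over all 171 selected cells, 4685 genes reached 50 UMIs, of which 78 (1.66%) rose by 2-fold or more in the KO and 275 (5.87%) fell by that much. The median log2 ratio of KO over control was -0.12. Within the class II-low cells, 2506 genes had at least 50 UMIs, of which 112 (4.47%) rose and 162 (6.46%) fell by 2-fold or more, with a median of -0.08. Rose and fell are used here of the size of a difference between 2 single libraries, with no test behind it. The shares of all genes set beside list counts below are over genes with at least 50 UMIs. List genes needed only 10 UMIs, so list counts and these shares have unlike minimums and are not directly comparable. Because the class II-low portion was 62.9% of the selected cells in the control (95% CI 54.3 to 70.9) and 51.6% in the KO (95% CI 33.1 to 69.8), values for the class II-low cells are given beside the main ones. In the class II-high cells 2857 genes reached 50 UMIs, of which 40 (1.40%) rose and 189 (6.62%) fell by 2-fold or more.

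Pgam1, the glycolytic mutase that the KO targets in adipocytes, was present in the selected cells of both libraries (chromosome 19, 41911923 to 41918660, plus strand). It had 118.9 CPM in the control and 140.2 CPM in the KO selected cells, a log2 ratio of 0.24 (95% CI -0.22 to 0.68). In class II-low cells the values were 113.5 and 211.5 CPM, a ratio of 0.90 (95% CI 0.26 to 1.51), but 1 cell held 47.2% of the 36 KO UMIs. The ratio in class II-high cells was -0.42 (95% CI -1.15 to 0.25). Pgam2, the muscle isoform, had 0 UMIs in the selected cells of both libraries.

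The nonclassical markers outside the selection were lower in the KO selected cells. Their median log2 ratio was -0.62, and 4 of 19 were at least 2-fold lower, beside 5.87% of all genes, while none was 2-fold higher. Cx3cr1 fell from 362.1 to 123.6 CPM (log2 ratio -1.55, 95% CI -1.99 to -1.14), Spn from 355.1 to 147.3 CPM (-1.27, 95% CI -1.68 to -0.88) and Pou2f2 from 791.2 to 392.1 CPM (-1.01, 95% CI -1.26 to -0.77). Slc12a2, a sodium, potassium and chloride cotransporter, fell from 126.8 to 19 CPM (-2.74, 95% CI -3.97 to -1.72). In class II-high cells the median was -1.09, and 11 of 19 were at least 2-fold lower, beside 6.62% of all genes there, while 1 was higher, beside 1.40%. Plac8 went the other way, with 990.4 CPM in the control and 1219.2 CPM in the KO (0.30, 95% CI 0.15 to 0.45).

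Within the class II-low cells the median of the 19 was -0.51, with 4 of 19 at least 2-fold lower, beside 6.46% of all genes, and none 2-fold higher. Cx3cr1, Spn, Pou2f2 and Slc12a2 had ratios of -1.32, -1.12, -0.90 and -2.46 in these cells, and Plac8 of 0.59. The median of the list was thus below 0 in both portions, but the class II-high cells were a mixture. Among them 14 of 52 control and 2 of 15 KO cells held at least 10 of the 19 markers. The part of this make-up in the class II-high median was not tested. For description only, the selecting genes Treml4 and Adgre4 had ratios of -0.83 (95% CI -1.31 to -0.38) and -1.20 (95% CI -1.64 to -0.78) there, while Cd300e had -0.44 (95% CI -1.07 to 0.15) and Fcgr4 0.17 (95% CI -0.26 to 0.58).

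The median of the classical monocyte genes had opposite signs in the 2 portions, with few UMIs behind it in the class II-high KO cells. Within the class II-low cells, of 9 genes on the list, 5 were at least 2-fold higher in the KO, beside 4.47% of all genes, and none was 2-fold lower, with a median log2 ratio of 1.24. Vcan (the proteoglycan versican) had 29.3 CPM among control and 405.4 CPM among KO cells, and Fn1 291.1 and 1850.8 CPM. F13a1 (a subunit of coagulation factor XIII) had 42.1 and 223.3 CPM and Hp (haptoglobin) 104.3 and 246.8 CPM. The 2 genes most used to mark classical monocytes differed less, with 104.3 and 188 CPM for Ly6c2 and a log2 ratio of 0.50 for Ccr2 (95% CI 0.20 to 0.79). In the class II-high cells 5 of the 6 with at least 10 UMIs were at least 2-fold lower, beside 6.62% of all genes there. None was higher, beside 1.40%. The median was -1.72, with a counting interval of -3.59 to -0.30 for the middle of the list. Of the 9 genes, 5 had 0 UMIs in the KO class II-high cells and 2 had at least 10. The 7 control class II-high cells with at least 40 Fn1 UMIs held from 46 to 199 of them each. No other control class II-high cell held more than 16, so most of the control Fn1 in this portion lay in these 7 cells. Over all selected cells the list had a median of 0.41, with 3 of 9 at least 2-fold higher.

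A small number of KO cells carried these transcripts. At least 3 UMIs of Ly6c2, Chil3 and Vcan together were found in 7 of the 16 KO class II-low cells (43.8%, 95% CI 19.8 to 70.1) and in 15 of the 88 control cells (17%, 95% CI 9.87 to 26.6). The limit was on raw UMIs, and the KO class II-low cells were deeper, with a median of 9051 UMIs against 5513. The 2 shares were not compared at equal depth. The 7 KO cells were deep, with a median of 16037 UMIs against 6710 in the other 9, and they supplied 63.9% of the KO class II-low UMIs, whereas the 15 control cells supplied 23.8%. They held a median of 12 of the 19 nonclassical markers, against 17 in the other 9. None of the 7 was among the highest doublet scores, and 2 of the 15 control cells were. Their classical list summed to 6587.4 CPM and their 19 nonclassical markers to 8031.8 CPM, against 796.7 and 18032.5 CPM in the other 9 KO cells.

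The lower median of the nonclassical markers was not seen among the remaining cells. Among the 73 control and 9 KO class II-low cells with fewer than 3 UMIs of Ly6c2, Chil3 and Vcan, the median log2 ratio of the 19 markers was -0.01. Spn had a ratio of 0.04 (95% CI -0.42 to 0.46), Itgal of -0.06 (95% CI -0.40 to 0.26), Pou2f2 of -0.11 (95% CI -0.42 to 0.19) and Nr4a1 of 0.17 (95% CI -0.15 to 0.48). Among the markers whose interval lay below 0 were Cx3cr1, at -0.91 (95% CI -1.54 to -0.33), and Slc12a2, at -1.49 (95% CI -2.83 to -0.41). Among those whose interval lay above 0 were Gngt2, Ace and Ceacam1, at 0.63 (95% CI 0.32 to 0.93), 0.48 (95% CI 0.12 to 0.81) and 1.08 (95% CI 0.54 to 1.58). Vcan had 0 UMIs in the 9 KO cells and 3 in the 73 control cells. This division was made after the values were seen, on genes of the list that was higher in the KO, and it leaves 9 KO cells, so it describes these cells and tests nothing.

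**Figure D3:**
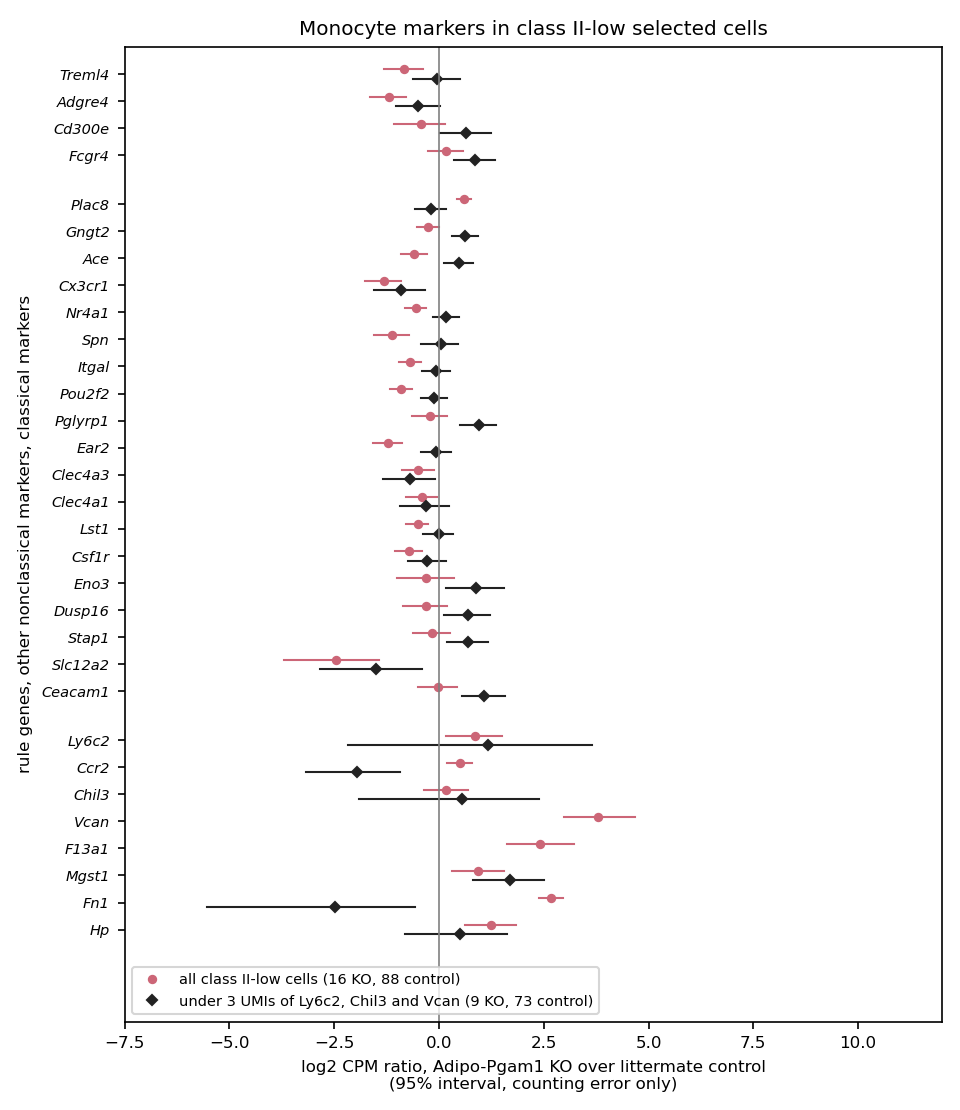
Points give the log2 CPM ratio of Adipo-Pgam1 KO over littermate control for each monocyte marker, with 95% intervals for counting error, in all class II-low selected cells (circles) and in those with fewer than 3 UMIs of Ly6c2, Chil3 and Vcan (diamonds); genes without a ratio at these counts have no point. The circles of most nonclassical markers lie below 0 and those of the classical markers above 0, and the diamonds of the nonclassical markers outside the selection lie on both sides of 0, with a median of -0.01.

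Several of the largest rises in the KO were chemokines carried by a few cells. Ccl24, an eosinophil attractant, had 6 UMIs in 4 control cells and 151 UMIs in 6 KO cells, and 62.3% of the latter were in 1 cell. Ccl7, a monocyte attractant, had 7 UMIs in 2 control cells and 58 in 5 KO cells, 72.4% of them in 1 cell. Both were found in the class II-low KO cells, at 881.4 and 340.8 CPM, and both had 0 UMIs in the 9 KO cells with fewer than 3 UMIs of Ly6c2, Chil3 and Vcan. Ccl5, a T cell attractant, came instead mainly from class II-high cells, with 42.8 CPM in the control and 1340.9 CPM in the KO and 71.7% of the KO UMIs in 1 cell. Among all other kept cells these chemokines were higher in the KO as well. Ccl24 had 122 and 146.3 CPM there, Ccl7 46.6 and 126.9 CPM and Ccl5 443.1 and 708.8 CPM. Ccl24 was, however, found in 12.9% of these control cells and 4.75% of these KO cells. In resident macrophages the log2 ratios of Ccl24, Ccl7 and Ccl5 were -0.84, -0.02 and -2.50. In classical monocyte-rule cells those of Ccl24 and Ccl5 were 1.81 and -0.07, and Ccl7 had 60 control and 0 KO UMIs. Cxcl10, an interferon-induced chemokine, had all of its 239 KO UMIs in 1 class II-low cell.

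Another of the largest rises was in the receptor C5ar1, which binds complement C5a. It had UMIs in 31 of the 140 control cells and in 10 of the 31 KO cells, all 10 of them class II-low, at 44.1 and 159.2 CPM (log2 ratio 1.85, 95% CI 1.32 to 2.39), with 23.9% of the KO UMIs in 1 cell. Its class II-low ratio was 2.05. Ccr1, another receptor for monocyte attractants, had 22 and 147.3 CPM (2.74, 95% CI 2.08 to 3.44), with 32.3% of its UMIs from 1 of 7 KO cells, and ratios of 5.14 in class II-low and -0.19 in class II-high cells. G0s2, an inhibitor of fat breakdown by adipose triglyceride lipase, had 53.5 and 218.6 CPM, but 63% of the KO UMIs were in 1 cell, and its class II-low ratio was 2.14. Among all other kept cells C5ar1 had 53 CPM in the control and 31.8 CPM in the KO, and G0s2 had 150.8 and 112.6 CPM. By contrast Erdr1 had similar values outside the selected cells, at 27.1 and 87.8 CPM, to those within them, at 24.4 and 87.9 CPM.

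**Figure D4:**
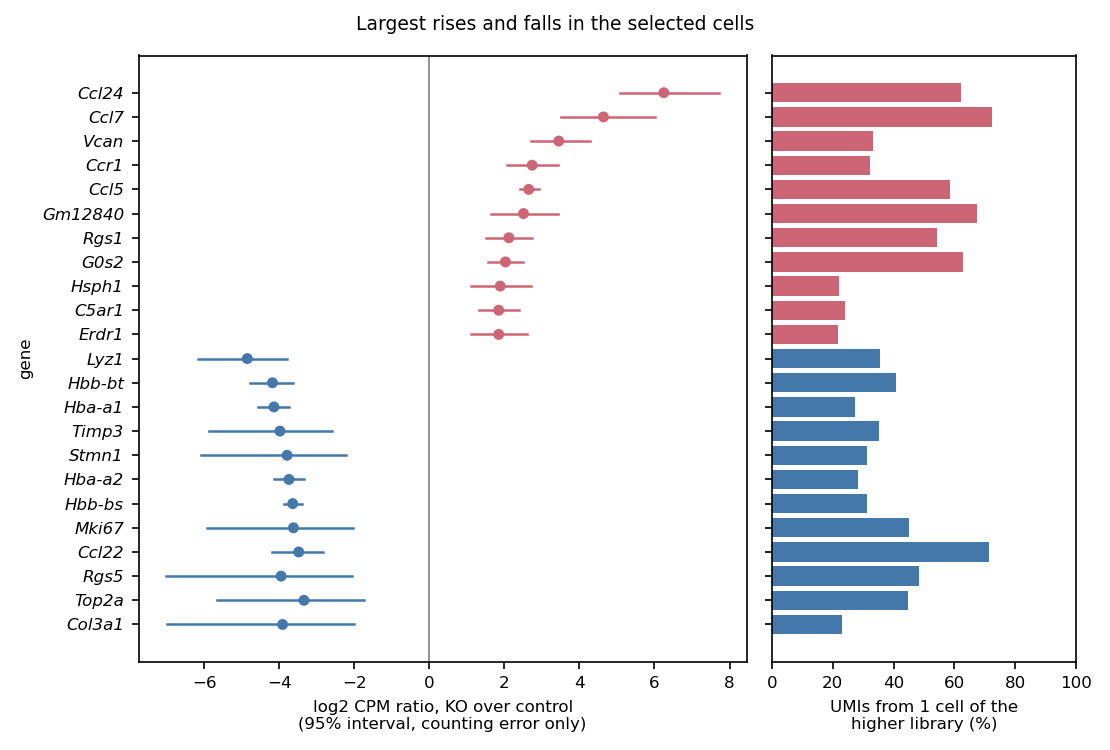
The left panel gives the log2 CPM ratio of KO over control in all selected cells, with 95% intervals for counting error, for genes among the 12 largest rises (red) and the 12 largest falls (blue). The right panel gives the percentage of the UMIs of the higher library that came from 1 cell, which reaches 72.4% for Ccl7 and 71.5% for Ccl22.

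The 4 haemoglobin genes were among the largest falls. Hbb-bs had 4378.9 CPM in the control and 351.7 CPM in the KO selected cells (log2 ratio -3.64, 95% CI -3.88 to -3.40), and its class II-low ratio was -4.52. In the control, 4 cells had at least 1000 haemoglobin UMIs each, 3 of them class II-low. They held 10919 of the 11858 haemoglobin UMIs of the control selected cells, so most of the control level came from these 4 cells. No other selected cell exceeded 42 in the control or 23 in the KO, where the selected cells held 279 in all. Haemoglobin was lower in the KO outside the selected cells as well, with a log2 ratio of -1.38 for Hbb-bs among all other kept cells. The part of red cell RNA in this difference was not tested. The alpha and beta globin genes are pairs of near copies, so the split between the members of a pair is uncertain.

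Falls in cell cycle genes came from the class II-high cells. Mki67, a marker of cycling cells, had 110 UMIs in 7 control class II-high cells and 2 UMIs in 1 KO class II-high cell. A single control cell held 45.5% of the 110. Top2a, the topoisomerase that untangles chromosomes, had 90 and 0 UMIs, and Stmn1, a microtubule regulator, 122 and 2. In class II-low cells each of these genes had at most 3 UMIs in either library. Of 8 cell cycle genes, 7 were at least 2-fold lower in the KO over all selected cells, beside 5.87% of all genes. Among all other kept cells Mki67, Top2a and Stmn1 were higher in the KO, with log2 ratios of 0.94, 0.46 and 0.40. Ccl22, a chemokine of mature dendritic cells, and Lyz1, a lysozyme near identical to Lyz2, also fell in class II-high cells, from 925.5 to 79.8 CPM and from 830.2 to 16 CPM. One control cell held 71.9% of the Ccl22 UMIs of the class II-high control cells.

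Other falls were in genes made by stromal and mural cells. Timp3 (a metalloprotease inhibitor) fell from 149.6 to 9.51 CPM, Rgs5 (a pericyte gene) from 73.2 to 4.75 CPM and Col3a1 (a collagen) from 71.6 to 4.75 CPM. In class II-low cells they had 208.7, 86 and 73.2 CPM in the control and 1, 0 and 0 UMIs in the KO. For each gene, the control class II-low cell with the most UMIs held 50.9%, 66% and 52.5% of those UMIs. In the control class II-high cells the largest share in 1 cell was 88.2%, 97.8% and 21.6%. Col3a1 was found in 47 of 140 control cells, at 5180.8 CPM in the fibroblast-like control cells, and had 6814.1 CPM in the KO fibroblast-like cells. Rgs5 and Timp3 were lower in the KO among all other kept cells too, with log2 ratios of -1.90 and -0.96. Of the 6 fibroblast markers, 5 had at least 10 UMIs in the selected cells and 3 of these were at least 2-fold lower, beside 5.87% of all genes, and the sum of the list was 168.5 CPM in the control and 42.8 CPM in the KO. Among the class II-low cells with few Ly6c2, Chil3 and Vcan UMIs the median of the list was 0.76 over 3 genes. Its counting interval was -1.71 to 2.65 for the middle of the list. Counts under 3 were set to 3 for this median, and all KO class II-low cells held 10 UMIs of the list. The sign of this median is therefore uncertain. The part of stromal RNA in these values was not tested.

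A ranking within the class II-low cells, added after the values were seen, put Nfe2 and Pdgfb among the largest falls. Nfe2, a transcription factor best known from megakaryocytes and red cell precursors, had 65 UMIs in 42 of 88 control cells and 3 UMIs in 3 of 16 KO cells (log2 ratio -2.75, 95% CI -5.07 to -1.14). No control cell held more than 6.15% of its UMIs. Among all other kept cells it had 2.73 CPM in the control and 3.55 CPM in the KO, and of 4 platelet genes Ppbp had 2 UMIs in the control class II-low cells and the rest 0 in both libraries. Pdgfb, a growth factor for mural cells, had 62 UMIs in 33 control cells and 3 UMIs in 2 KO cells (-2.69), and among all other kept cells 31.6 and 26.7 CPM. In the 9 KO cells with fewer than 3 UMIs of Ly6c2, Chil3 and Vcan, Nfe2 had 1 UMI and Pdgfb 3. Against the control cells under the same limit, the log2 ratio of Nfe2 was -2.97 (95% CI -8.30 to -0.43). That of Pdgfb was -1.44 (95% CI -3.76 to 0.19), an interval that spans 0. Retnla, a secreted protein of alternatively activated macrophages, had 65 UMIs in 43 control cells and 1 UMI in the KO, but it was abundant in control macrophages, at 20135.6 CPM, and lower in the KO fibroblast-like cells as well, from 114.3 to 19.2 CPM. Lpl (lipoprotein lipase) and Igfbp7 had 134 and 137 control UMIs in 20 and 23 cells, and 2 UMIs each in the KO, but 1 control cell held 76.6% of those of Igfbp7 and 35.8% of those of Lpl.

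The median of the glycolytic genes was above 0 in class II-low cells and near that of all genes in class II-high cells. In class II-low cells 5 of 17 with at least 10 UMIs were at least 2-fold higher in the KO, beside 4.47% of all genes, and 1 was at least 2-fold lower, with a median log2 ratio of 0.76. In class II-high cells 1 of 15 was higher and 3 were lower, beside 1.40% and 6.62% of all genes there. The median was -0.14, with a counting interval of -1.02 to 0.67, beside -0.12 for all genes. Over all selected cells the median was 0.35 with 2 of 17 at least 2-fold higher, beside 1.66% of all genes. Slc16a3, the lactate exporter MCT4, had 119 CPM in the control and 282 CPM in the KO class II-low cells (1.25, 95% CI 0.68 to 1.81). Eno1 (enolase) had 223.3 and 434.8 CPM (0.96, 95% CI 0.52 to 1.39) and Gapdh 551 and 904.9 CPM (0.72). Hif1a, the factor that turns on glycolysis in low oxygen, had 86 and 505.3 CPM (2.55, 95% CI 2.02 to 3.10). In the 9 KO cells with few Ly6c2, Chil3 and Vcan UMIs the list median was 0.62, with a counting interval of -0.15 to 1.32. The ratio of Slc16a3 there was 1.71 (95% CI 0.97 to 2.41), whereas that of Hif1a was 0.33 (95% CI -1.41 to 1.72). Slc16a3 had 0 UMIs in the KO class II-high cells, against 24 in the control.

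Heat shock genes were higher in the KO in the selected cells and outside them. Over all selected cells 3 of 9 were at least 2-fold higher, beside 1.66% of all genes, and none was 2-fold lower, with a median log2 ratio of 0.80, and the medians were 0.95 in class II-low cells and 0.58 in class II-high cells. Hspa8, the constitutive HSP70 chaperone, had 1131.3 and 1963 CPM (0.80, 95% CI 0.67 to 0.92). Hspa1a and Hspa1b, the inducible HSP70 genes, had 4 and 12 UMIs in the control and 21 and 24 in the KO, and are near copies, so the split between them is uncertain. The list summed to 2901.1 CPM in the control and 4413.3 CPM in the KO selected cells, and to 2518.8 and 3565.7 CPM in all other kept cells. It was also higher in KO macrophages, at 2380.4 and 3560.6 CPM, and in dendritic-rule cells, at 3216.7 and 4913.1 CPM. Hspa8 had a ratio of -0.07 (95% CI -0.50 to 0.34) in the 9 KO cells with few Ly6c2, Chil3 and Vcan UMIs. The list median there was 0.89, with a counting interval of -1.60 to 2.81 for the middle of the list. None of 7 genes was 2-fold higher or lower there, beside 3.58% and 8.05% of all genes. Counts under 3 were set to 3 for this median, so its sign is uncertain.

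Of 12 genes for Fc receptors and their signalling, 4 were at least 2-fold higher in KO class II-low cells, beside 4.47% of all genes, and none was 2-fold lower, with a median log2 ratio of 0.15. Over all selected cells 2 were higher and 2 lower by that much, with a median of -0.01. In class II-low cells the high-affinity IgG receptor Fcgr1 had 36.6 and 205.6 CPM (2.49, 95% CI 1.66 to 3.36), the inhibitory Fcgr2b 166.6 and 540.6 CPM and Fcgr3 206.9 and 505.3 CPM (1.29, 95% CI 0.87 to 1.71). The Src-family kinase Fgr, which acts below these receptors, had a ratio of -0.98 (95% CI -1.41 to -0.57). In the 9 KO cells with few Ly6c2, Chil3 and Vcan UMIs, Fcgr1 had 0 UMIs and Fcgr2b 4, while Fcgr3 had a ratio of 0.87 (95% CI 0.10 to 1.58) and the list a median of -0.08.

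Inflammatory cytokine genes had medians of unlike sign in the 2 portions, with counting intervals that overlapped and spanned 0. In class II-low cells 6 of 10 with at least 10 UMIs rose by 2-fold or more, and none fell by that much. Of all genes with at least 50 UMIs, 4.47% rose by 2-fold or more. Their median log2 ratio was 1.16, with a counting interval of -0.30 to 2.56 for the middle of the list. In class II-high cells 1 of 8 rose and 2 fell, beside 1.40% and 6.62% of all genes there. The median was -0.47, with a counting interval of -2.72 to 1.29. Over all selected cells the median was 0.62 and 4 of 11 were at least 2-fold higher, beside 1.66% of all genes. Among the class II-low cells with few Ly6c2, Chil3 and Vcan UMIs the median was 2.02, with a counting interval of 0.31 to 3.59. There 5 of 8 were at least 2-fold higher and 1 was lower, beside 3.58% and 8.05% of all genes. Counts under 3 were set to 3 for this median. Interferon-stimulated genes had a median of 0.82 in class II-low cells, with 2 of 10 at least 2-fold higher, beside 4.47%. Over all selected cells their median was 0.08, with 2 of 14 at least 2-fold lower, beside 5.87%. Much of the Cxcl10 and chemokine RNA behind such values lay in single cells, as above.

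Survival genes and transcription factors had a median of -0.46 in class II-low cells, with 2 of 13 higher and 2 lower by 2-fold or more, beside 4.47% and 6.46% of all genes. Over all selected cells the median was -0.36. Adhesion and migration genes had a median of -0.20, with 1 of 14 higher and 2 lower. Immediate early genes, which respond quickly to stimulation, had a median of 0.35 in class II-low cells and -0.01 over all selected cells. Lysosome genes had medians of 0.22 and 0.10, and clock output genes, which follow the circadian cycle, -0.43 and -0.25. Resident macrophage genes had medians of -0.09 and 0.33. The dendritic list and the MHC class II genes, over all selected cells, had medians of 0.07 and 0.23 with none of 8 and none of 7 changed by 2-fold, and within class II-high cells the class II median was 0.17.

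Of 11 lipid handling genes, 4 were at least 2-fold lower in the KO selected cells, beside 5.87% of all genes, and 1 was at least 2-fold higher. The median log2 ratio was -0.24, with a counting interval of -0.94 to 0.42 for the middle of the list. Apoe (the lipoprotein ligand) had 2782.5 CPM in control and 1639.3 CPM in KO class II-low cells (-0.76, 95% CI -0.95 to -0.58), and the fatty acid binding protein Fabp4 had 821.9 and 276.2 CPM (-1.57, 95% CI -2.04 to -1.14). Apoe was more abundant in macrophages, at 8088.9 CPM in the control and 13089.4 CPM in the KO, and the part of macrophage RNA in these values was not tested.

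Single KO cells also carried RNA of other blood cells. One class II-low KO cell held 96.5% of the 57 S100a9 UMIs of the KO selected cells, a neutrophil gene with 0 UMIs in the control selected cells. All 18 Gzma UMIs, a granzyme of NK and T cells, were likewise in 1 class II-low KO cell. Both genes were found among the 9 KO cells with few Ly6c2, Chil3 and Vcan UMIs. The 7 neutrophil genes summed to 49.6 CPM in the control and 316.1 CPM in the KO, and 4 of the 5 with at least 10 UMIs were at least 2-fold higher, while Ly6g and Retnlg had 0 UMIs in both libraries. A single KO cell held 118 of the 133 neutrophil-list UMIs, with 2 UMIs of the selecting genes and 6 of the 19 markers, so its own transcripts went against the label of a nonclassical monocyte. The adipocyte list summed to 12.6 CPM in the control and 4.75 CPM in the KO. Platelet markers summed to 1.57 and 0 CPM, and mesothelial markers to 7.87 and 2.38 CPM. Summed endothelial markers had 58.3 and 9.51 CPM and B cell genes 163.8 and 64.2 CPM. The part of such RNA in the ratios above was not tested.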

How the data were processed

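Single-cell 10x libraries of the gWAT SVF were analysed, 1 per genotype. The authors aligned reads to mm10 and counted UMIs per gene and cell with Cell Ranger 3.0.1, and the deposited values are these raw counts for 28692 genes, in 8522 control and 2730 KO barcodes with 42859406 and 13821581 UMIs. The submitters' processing notes also name Seurat 3.1.5 and R 4.0.1, whose output was not used here. Cells were kept and selected as described in the results. The selected cells, the 27 gene lists and the rules were chosen with earlier results of these data known. The libraries shared 9 barcodes, 1 of them a selected cell, and no cell was removed for it. Doublet scores from scanpy 1.11.5 marked the highest 6.82% of control and 2.20% of KO barcodes, among them 6 control and 0 KO selected cells, which were kept and then left out as an alternative.

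UMIs were summed over cells and divided by the total of the group. Intervals were exact (Poisson for levels, Clopper-Pearson for shares, conditional binomial for ratios), at 95%, and cover counting error only. No test between genotypes was possible with 1 library each, so sizes of difference are given. Genes needed 50 UMIs to be counted among all genes and 10 UMIs within a list. For ranking, medians and counts of 2-fold differences, counts under 3 were set to 3, and a printed ratio against 0 UMIs was computed against 3. Named genes were the selecting and limiting genes, Pgam1 and Pgam2, the 20 largest ratios to all other kept cells and the 5 largest to each comparator, the 12 largest rises and falls in the KO with UMIs in at least 5 cells of the higher library, and listed genes beside their list's count. Genes ranked within the class II-low cells, Cxcl10 and Hif1a were named after their values were seen. Some genes that met these rules are not reported here.

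Comparators held no UMI of Treml4, Adgre4 or Cd300e, so these 3 genes are at 0 there by construction. Macrophages had at least 10 C1q UMIs and 1 of Folr2 or Cbr2, classical monocyte-rule cells at least 1 UMI each of Ly6c2 and Ccr2 and 10 of Lyz2, and dendritic-rule cells at least 2 UMIs of Cd209a and 5 of H2-Ab1. Shares at equal depth used 2000 UMIs per cell. Alternatives changed the cell filters, the selection limits, doublets, the deepest cells, scaling (edgeR 4.0.16 TMM factors in R 4.3.3, or median-of-ratios), cell weights and the UMI minimum. Scripts ran in Python 3.11.15 with numpy 2.4.6, scipy 1.17.1, pandas 2.3.3 and matplotlib 3.10.9 and were tested on simulated data. Coordinates are from the GRCm38 annotation, which held 28339 of the 28692 gene IDs.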

Additional observations from a re-analysis of the deposited data

How the results depend on the processing

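Of 544 values recomputed under alternatives, 456 moved by less than their counting interval or count limit, 83 moved by more, and 5, all ratios of at least 2-fold to begin with, changed sign. Smaller values that crossed 0, such as the MHC class II median, are counted with the others. The cause was not tested. With looser cell filters the share of selected cells was 2.49% (control) and 2.07% (KO), and with stricter ones 5.22% and 5.12%. In the control it was 2.68% with at least 3 UMIs of the 4 genes and 2.81% after removal of cells with RNA of other classes. The class II-low share was 2.27% and 1.67%, and that of cells with at least 10 of 19 markers 2.53% and 1.57%. The class II-low limit, the limit of 10 markers and the division by Ly6c2, Chil3 and Vcan were chosen after seeing the data. The nonclassical median was -0.93 with at least 3 UMIs and -0.93 without other classes, and the classical median was 1.24 in class II-low cells and 1.25 with at least 10 markers. The MHC class II median was 0.06 with stricter filters, 0.55 with at least 3 UMIs, -0.02 without the 3 deepest cells, -0.05 in class II-low cells, 0.87 with at least 10 markers, 0.33 with TMM factors, 0.34 with median-of-ratios factors and 0.43 with equal weights. Pgam1 was at 0.90 and the number of lower genes 162 in class II-low cells. At a minimum of 20 UMIs 205 genes were higher and 763 lower, and at 10 UMIs 358 and 771. Ccl22 turned to 2.34 without other classes, Lyz1 to 0.27 and Rgs1 to -1.64 in class II-low cells, and Ccl5 to -3.85 and Lyz1 to 0.18 with at least 10 markers. Another scaling moved all ratios by 0.10 with TMM and 0.11 with median-of-ratios factors. No paired analysis was possible because each genotype had 1 library, and leaving out a replicate was not possible for the same reason. With 31 KO cells, depth limited every ratio of a low gene.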
